A study of Arabidopsis thaliana with 4 samples.

Results

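The genes described here encode UDP-glycosyltransferases (UGTs) of Arabidopsis thaliana. They were taken as the probe sets that the platform annotation assigns to a single gene whose symbol is UGT followed by a number, without UGT78D1, UGT78D2 and UGT78D3, and they were grouped by that number. This gave 44 probe sets for 44 genes, out of 22746 probe sets tested, in 10 numbered groups. Transcripts were measured on 1-colour Affymetrix arrays in whole seedlings of the css1 mutant (2 arrays) and of the wild type, Columbia accession (WT, 2 arrays). Each array held an independent biological RNA sample. Seedlings of both genotypes were 9 days old and had grown in continuous light on B5 agar with 2% sucrose. The labels do not name the gene affected in css1, the allele or the number of plants behind an RNA sample, and the transcript of the affected gene is not analysed here.

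UGTs move a sugar, most often glucose, from a UDP-sugar to a small acceptor molecule. Their acceptors include hormones, defence signals, phenolic compounds and foreign chemicals, and the glycoside is usually more soluble, less active and easier to store in the vacuole than the free compound. Members with the same number after UGT are close in protein sequence, but members of the same group can differ in acceptor. As background, css1 was named for its changed sensitivity to inhibitors of cellulose synthesis and has been described as a mutant of a nuclear gene for a mitochondrial intron maturase, with altered carbon metabolism.

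The 4 arrays had median log2 signals between 6.32 and 6.37. Over all probe sets, the correlation was 0.997 between the css1 arrays, 0.996 between the WT arrays and 0.982 to 0.986 between genotypes. Precision is limited by the small number of arrays. The standard error (SE) of a difference had a median of 0.11 log2 units over the UGT genes and of 0.10 over all probe sets. Signals of different probe sets are not compared with each other, since each has its own probes. All differences below are css1 minus WT in log2 signal, and a fold is that difference taken out of log2.

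A minority of the UGT genes passed the threshold for a difference between css1 and WT, and most of those that did were higher in css1. The threshold was an adjusted p under 0.05 in limma, by the Benjamini-Hochberg method over all 22746 probe sets. By this rule 7 of the 44 genes (15.9%) rose in css1, namely UGT76E12, UGT76E11, UGT73C1, UGT76B1, UGT71B5, UGT84A3 and UGT85A2, against a background of 7.63% over all probe sets and 6.88% over those with a single annotated gene. Another 3 genes (6.82%) fell, namely UGT71C1, UGT72E2 and UGT76C1, against backgrounds of 8.01% and 6.85%. In both directions together 10 UGT genes (22.7%) passed, while 15.6% of all probe sets and 13.7% of those with a single gene did. The difference between these shares was not tested.

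**Figure D1:**
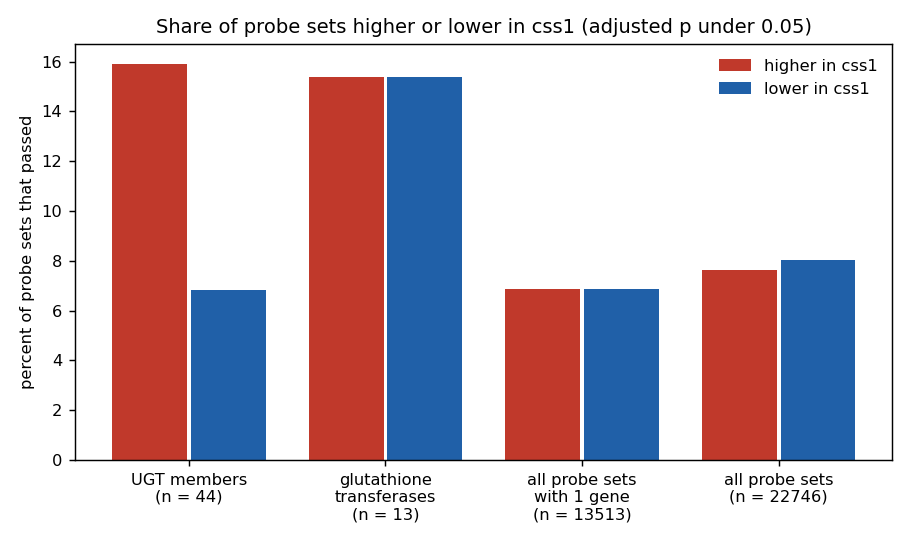
Percent of probe sets that passed (adjusted p under 0.05, y axis), with bars for those higher and those lower in css1, for the UGT genes, the glutathione transferase genes and 2 backgrounds. The bar for rises is at 15.9% in the UGT genes and at 7.63% over all probe sets, and the bars for falls are at 6.82% and 8.01%.

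The 44 genes as a set did not move in a single direction. Below, the family means these 44 genes only. UGT genes without such a symbol or a probe set of their own are not covered. The median difference over the 44 genes was 0.0051, beside −0.03 over all probe sets, with 23 genes above 0 and 21 below. The middle of the distribution ran from −0.15 to 0.28 (lower and upper quartile), against −0.18 to 0.13 over all probe sets. Both css1 arrays lay above both WT arrays for 19 genes, a pattern that 26.6% of all probe sets showed, and below them for 12, as in 33.4% of all probe sets. The genotypes thus did not overlap in 70.5% of the genes, against 60.0% of all probe sets. Before adjustment, 18 of the 44 genes had a limma p under 0.05, beside 7214 of all 22746 probe sets. The 34 genes that did not pass had differences between −0.41 and 0.49.

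**Figure D2:**
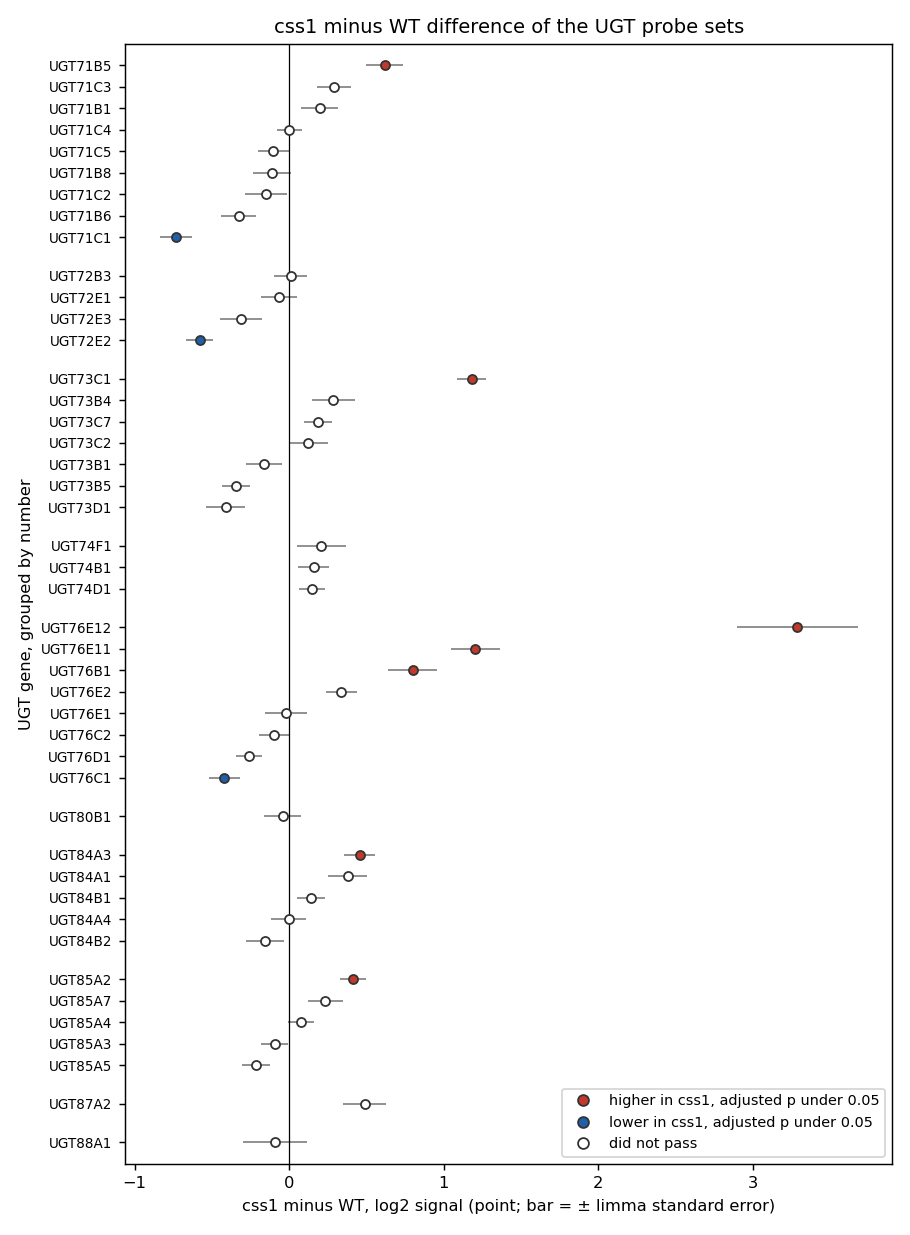
Difference in log2 signal, css1 minus WT (x axis), with its limma standard error, for each of the 44 UGT genes (y axis), ordered within groups by size. Filled points passed the threshold, red for higher and blue for lower in css1. UGT76E12 stands at 3.29 and UGT76E11, the next, at 1.20.

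The UGT76 group held the largest rises and the most calls, with 3 of its 8 genes higher and 1 lower in css1. Over all probe sets, 7.63% were higher and 8.01% lower. The group median was 0.16, and it was 0.34 when dim probe sets were dropped. That filter used the mean over all 4 arrays, so it depends on the difference itself. UGT76E12, dim in WT, was kept through its css1 signals, and UGT76E1, dim in both genotypes, was dropped. Members of the group act on several defence and growth regulators. UGT76E1, UGT76E2, UGT76E11 and UGT76E12 form a subgroup whose enzymes can glucosylate the jasmonate derivative 12-hydroxyjasmonic acid, UGT76B1 glucosylates isoleucic acid, salicylic acid and N-hydroxypipecolic acid, UGT76D1 glucosylates dihydroxybenzoic acids made from salicylic acid, and UGT76C1 and UGT76C2 attach glucose to ring nitrogens of cytokinins.

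UGT76E12 (AT3G46660) had log2 signals of 6.49 and 7.75 in css1 seedlings, against 4.0 and 3.67 in WT seedlings. Both css1 arrays were far above the WT arrays, but they differed from each other by more than those of any other gene that passed (SD 0.89, n = 2). The rise was 3.29 (SE 0.39, 9.76-fold, limma adjusted p = 0.00737), and it was 3.92 without css1 replicate 1 and 2.66 without css1 replicate 2. The WT signals lay under 4.73, the 30th percentile of mean signal over all probe sets. No detection calls were available, so whether this transcript was detected in WT is not known and the size of the fold is uncertain.

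UGT76E11 (AT3G46670), which lies next to UGT76E12 but for a single other annotated gene, had signals of 6.82 and 6.95 in css1 and of 5.89 and 5.47 in WT. The css1 arrays were both higher and close to each other, and the WT arrays were further apart. Its rise was 1.20 (SE 0.16, 2.31-fold, adjusted p = 0.00919). It missed the threshold, at a similar difference, when css1 replicate 1 (1.27, adjusted p = 0.0550) or css1 replicate 2 (1.14, adjusted p = 0.0754) was left out. The other members of the subgroup did not pass: UGT76E2 was at 0.34 (adjusted p = 0.0762), with both css1 arrays above both WT arrays. UGT76E1 was at −0.02 (adjusted p = 0.943), with overlapping arrays and a signal between 2.56 and 2.94 on every array, under the same 30th percentile.

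UGT76B1 (AT3G11340) had signals of 8.70 and 8.27 in css1, against 7.77 and 7.60 in WT. The genotypes did not overlap, and the css1 arrays differed by nearly as much as the gap between the lower of them and the higher WT array. The rise was 0.80 (SE 0.16, 1.74-fold, adjusted p = 0.0263), and it missed the threshold when css1 replicate 1 (0.59, adjusted p = 0.104) or WT replicate 2 (0.71, adjusted p = 0.0902) was left out. UGT76D1 was at −0.26 (adjusted p = 0.0893), with css1 signals of 5.38 and 5.37 and WT signals of 5.63 and 5.64, so the replicates were nearly equal and the genotypes did not overlap.

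The cytokinin N-glucosyltransferase gene UGT76C1 (AT5G05870) fell by 0.42 (SE 0.10, adjusted p = 0.0425). This call was the closest to the threshold of the 10. It was lost without each array in turn, at adjusted p from 0.0732 to 0.239. Its neighbour UGT76C2, the other cytokinin N-glucosyltransferase gene, was at −0.10 (adjusted p = 0.554).

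In the UGT73 group, 1 of 7 genes rose (7.63% of all probe sets did), none fell by this test (8.01%), and the group median was 0.12. The sign of that median was not stable. It was −0.16 over the 3 members left after dim probe sets were dropped and −0.026 without css1 replicate 2. The filter used the mean over all 4 arrays, so UGT73C1, dim in WT, was kept through its css1 signals. At an unadjusted p under 0.05 there were 3 of the 7 genes, beside 7214 of all 22746 probe sets. Of these 3 genes, UGT73B5 and UGT73D1 had negative differences. The group is known for the conjugation of foreign compounds and of several hormones. UGT73C1 (AT2G36750) encodes an enzyme that forms O-glucosides of the cytokinin zeatin and conjugates products of the explosive TNT. Its signals were 5.36 and 5.30 in css1, against 4.22 and 4.09 in WT, so replicates lay close together and the genotypes were well apart. UGT73C1 rose by 1.18 (SE 0.09, 2.26-fold, adjusted p = 0.00264), the smallest adjusted p in the family, and it passed without each array in turn (differences of 1.12 to 1.24, adjusted p of 0.00799 to 0.0290). Its WT signals were under the 30th percentile given above, so the size of this fold is uncertain too.

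The neighbouring gene UGT73C2 had a difference of 0.12 (adjusted p = 0.575). Its signals lay between 2.86 and 3.2 on the 4 arrays, under the same 30th percentile. UGT73C7, which encodes a glucosyltransferase of p-coumaric and ferulic acid, was at 0.19 (adjusted p = 0.219). UGT73B5 and UGT73B4, a pair of neighbours induced by pathogens and by oxidative stress, had differences of opposite sign, −0.35 (adjusted p = 0.0547) for UGT73B5 and 0.28 (adjusted p = 0.231) for UGT73B4. UGT73B5 passed when dim probe sets were left out before the limma fit and the adjustment (adjusted p = 0.0410). UGT73D1 was at −0.41 (adjusted p = 0.0815), the most negative difference among the genes that did not pass, and UGT73B1 at −0.16 (adjusted p = 0.399). By their mean signal, UGT73D1, UGT73B4 and UGT73C7 were also under the 30th percentile. A probe set that the annotation assigns to UGT73B2 and UGT73B3 together, and which is therefore no member here, was at −0.61 (adjusted p = 0.0525), with 8.61 and 8.67 in css1 and 9.47 and 9.02 in WT.

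The UGT71 group, the largest with 9 genes, held 1 rise and 1 fall, where 15.6% of all probe sets passed in either direction. The group median was −0.10, which ran from −0.14 without css1 replicate 1 to 0.0070 without css1 replicate 2. UGT71B5 (AT4G15280) had signals of 5.74 and 5.56 in css1, against 4.91 and 5.14 in WT. The genotypes did not overlap. The rise was 0.62 (SE 0.12, 1.53-fold, adjusted p = 0.0242) and passed in only 1 of the 4 comparisons with an array left out, that without WT replicate 2 (0.73, adjusted p = 0.0342), while the others gave 0.53 (css1 replicate 1 left out, adjusted p = 0.140), 0.71 (css1 replicate 2, adjusted p = 0.0976) and 0.50 (WT replicate 1, adjusted p = 0.0605).

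UGT71C1 (AT2G29750), whose enzyme glucosylates phenolic acids, flavonoids and lignans, had signals of 6.44 and 6.23 in css1, against 7.06 and 7.08 in WT. Both css1 arrays were below the WT arrays, which were nearly equal. It was 1.66-fold lower in css1 (−0.73, SE 0.10, adjusted p = 0.0114), the largest fall in the family, which missed the threshold when css1 replicate 2 was left out (−0.63, adjusted p = 0.0849). Its neighbour UGT71C2 was at −0.15 (adjusted p = 0.503).

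The genes of this group with a known part in abscisic acid conjugation did not pass. UGT71B6, which encodes an abscisic acid glucosyltransferase, was at −0.33 (adjusted p = 0.111), with both css1 arrays below both WT arrays. UGT71C5, another such gene, was at −0.10 (adjusted p = 0.537), and UGT71B8 at −0.11 (adjusted p = 0.590). The mean signal of UGT71B8 was under the 30th percentile. UGT71C3 (0.29, adjusted p = 0.143), UGT71B1 (0.20, adjusted p = 0.321) and UGT71C4 (0.0011, adjusted p = 0.997) made up the rest. A probe set annotated to UGT71D1 together with a second gene, again no member, rose by 0.55 (adjusted p = 0.0216).

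Among the 4 UGT72 genes, 1 fell, where 8.01% of all probe sets did. The group median was −0.19, with −0.30 to −0.098 when single arrays were left out. The UGT72E enzymes glucosylate the monolignols coniferyl and sinapyl alcohol and their aldehydes, which are the precursors of lignin. UGT72E2 (AT5G66690), the main gene of coniferyl alcohol glucoside formation, had signals of 8.29 and 8.18 in css1, against 8.81 and 8.82 in WT. The WT arrays were almost the same and both css1 arrays lay below them. UGT72E2 fell by 0.58 (SE 0.09, adjusted p = 0.0135), and missed the threshold when css1 replicate 1 (−0.63, adjusted p = 0.0731) or css1 replicate 2 (−0.53, adjusted p = 0.111) was left out.

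UGT72E3, for another monolignol glucosyltransferase, was at −0.31 (adjusted p = 0.179), also with both css1 arrays below both WT arrays. UGT72E1, whose enzyme prefers the aldehydes, was at −0.07 (adjusted p = 0.758), and UGT72B3 was at 0.0091 (adjusted p = 0.970). Of the fixed list of 16 monolignol and sinapate genes, 3 had a named probe set and none passed in limma or at an unadjusted p under 0.05. These were HCT, for a hydroxycinnamoyl transferase (−0.22, adjusted p = 0.188), ALDH2C4, for an aldehyde dehydrogenase of ferulate and sinapate synthesis (−0.14, adjusted p = 0.424), and CCR2, for a cinnamoyl-CoA reductase (−0.14, adjusted p = 0.629).

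The UGT84 group had 1 rise among 5 genes, where 7.63% of all probe sets rose. The group median was 0.14, which was 0.092 without WT replicate 2 and 0.38 when dim probe sets were dropped. The UGT84A enzymes form glucose esters of hydroxycinnamic acids, among them sinapoylglucose, and UGT84B1 can form the glucose ester of auxin. UGT84A3 rose by 0.46 (SE 0.10, adjusted p = 0.0353) in css1, and the call was lost without each array in turn (adjusted p from 0.0503 to 0.210). Its neighbours on either side were UGT84A1, at 0.38 (adjusted p = 0.0989), and UGT84A4, at −0.0047 (adjusted p = 0.987). UGT84B1 (0.14, adjusted p = 0.359) and UGT84B2 (−0.16, adjusted p = 0.434) did not pass, and their mean signals were under the 30th percentile.

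In the UGT85 group, also of 5 genes, only UGT85A2 passed, where 15.6% of all probe sets did. It rose by 0.41 (SE 0.08, adjusted p = 0.0284). The group median was 0.08, with 0.041 to 0.11 when single arrays were left out. The call was lost without each array in turn (adjusted p from 0.0511 to 0.164), with differences between 0.39 and 0.44. The 5 genes all had genotypes that did not overlap, as in 60.0% of all probe sets, and the differences went in both directions. Signals in css1 were above WT in UGT85A2, UGT85A7 (0.23, adjusted p = 0.236) and UGT85A4 (0.08, adjusted p = 0.614). They were below WT in UGT85A5 (−0.22, adjusted p = 0.173) and UGT85A3 (−0.10, adjusted p = 0.533).

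**Figure D3:**
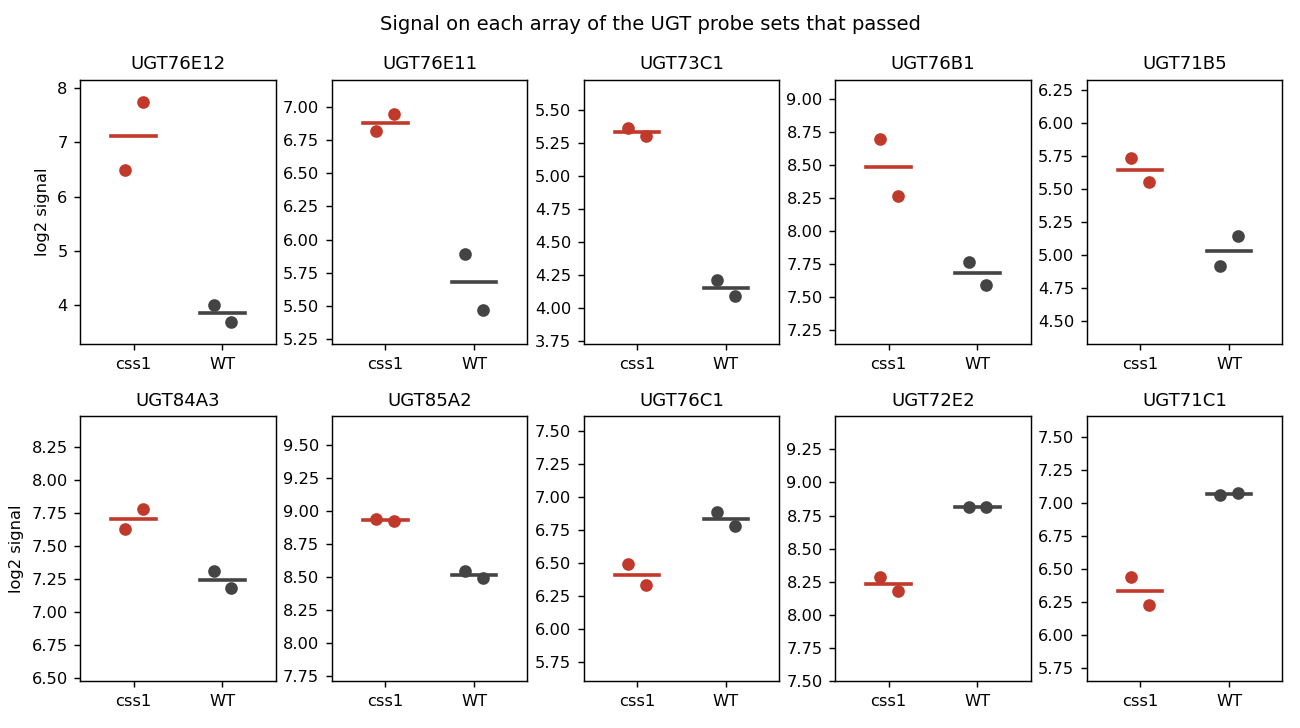
Log2 signal (y axis, its own range in each panel) on each of the 2 css1 and 2 WT arrays for the 10 UGT genes that passed, with a line at each genotype mean. In the 7 genes that rose both css1 points lie above both WT points, and in UGT76C1, UGT72E2 and UGT71C1 both lie below. The css1 points are furthest apart in UGT76E12.

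None of the 3 UGT74 genes passed in limma or at an unadjusted p under 0.05, and their differences were all positive, from 0.14 to 0.21. UGT74D1, whose enzyme glucosylates auxins and their oxidised forms, had the smallest p of the 3 (difference 0.14, adjusted p = 0.299). UGT74B1, which encodes the glucosyltransferase of glucosinolate synthesis, was at 0.16 (adjusted p = 0.353), and UGT74F1, for a salicylic acid glucosyltransferase, was at 0.21 (adjusted p = 0.440) with overlapping arrays.

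The remaining groups held a single gene each. UGT87A2, which has been linked to flowering time and to stress tolerance, had the largest difference among all genes that did not pass (0.49, SE 0.14, adjusted p = 0.0671). Its signals were 9.71 and 9.90 in css1, against 9.48 and 9.15 in WT, without overlap, and it passed without WT replicate 1 (0.65, adjusted p = 0.0367; 0.0367 to 0.307 over the comparisons with an array left out). UGT88A1 was at −0.09 (adjusted p = 0.814), with signals of 9.76 and 9.42 in css1 and 9.41 and 9.96 in WT, the least repeatable WT signals in the family. UGT80B1, which encodes a sterol glucosyltransferase of the seed coat and membranes, was at −0.04 (adjusted p = 0.853).

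Many UGT genes lie beside each other in the genome, and neighbours did not always move together. In the TAIR10.1 annotation, 28 of the 44 genes had another of them next to it or with 1 other protein-coding gene between, in 12 stretches. The UGT76E12 and UGT76E11 pair was the only stretch with more than 1 call, and both genes rose. In 5 other stretches a single gene passed while its neighbours did not. UGT73C1 and UGT73C2 differed most among these, by 1.06 log2 units between their 2 differences. The signals of UGT73C2 were under the 30th percentile on every array, so whether its transcript was detected is not known. No difference between neighbours was tested, and similar sequences in such stretches may share signal on the array. By their names, none of the 44 probe sets is of the kind designed to match several transcripts.

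**Figure D4:**
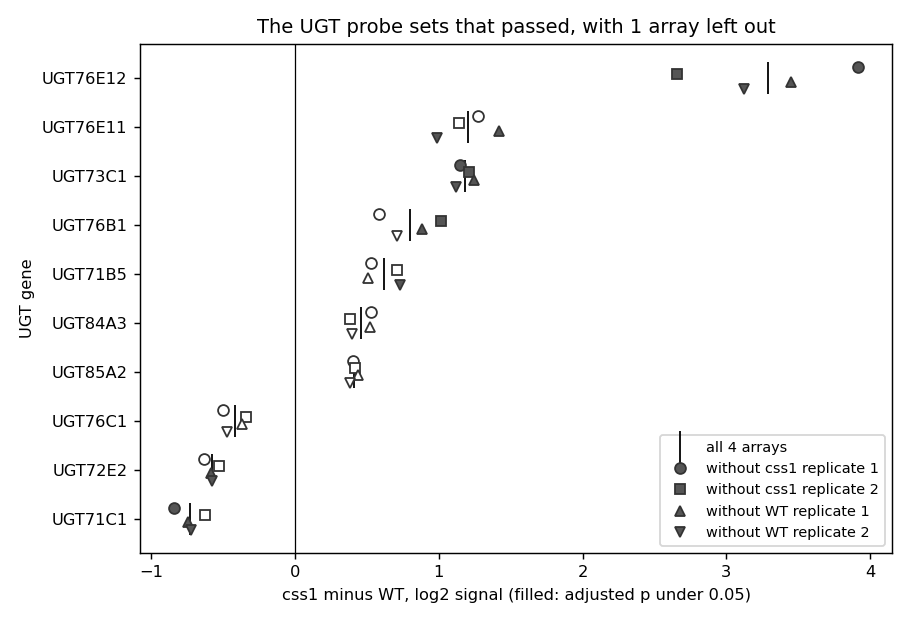
Difference in log2 signal, css1 minus WT (x axis), of the 10 UGT genes that passed (y axis), over all 4 arrays (bar) and with each array left out (symbols, filled where the adjusted p was under 0.05). All symbols keep the side of 0 of their gene, as they must where the genotypes do not overlap. Only UGT76E12 and UGT73C1 are filled throughout, and UGT76C1, UGT84A3 and UGT85A2 are open throughout.

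With an array left out, the number of the 10 genes that passed depended on which array it was. Their direction could not change, since the genotypes did not overlap in any of them. UGT76E12 and UGT73C1 passed in all 4 such comparisons. UGT71C1 passed in 3, UGT72E2, UGT76B1 and UGT76E11 in 2, UGT71B5 in 1, and UGT76C1, UGT84A3 and UGT85A2 in 0. The number of calls over all probe sets was also lower in each of these comparisons, from 560 without css1 replicate 2 to 3079 without WT replicate 1, against 3559 with all arrays.

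The glutathione transferases are another large family of conjugating enzymes in plant detoxification. They were taken by symbol, as GST followed by F, L, T, U or Z and a number, which gave 13 genes with a single-gene probe set. Family members annotated otherwise are not covered. Of the 13 genes, 2 rose (15.4%, against 7.63% of all probe sets) and 2 fell (15.4%, against 8.01%), with a median of −0.02. GSTU25 had signals of 7.38 and 7.44 in css1, against 5.35 and 4.64 in WT, a rise of 2.42 (SE 0.22, adjusted p = 0.00397). GSTU20 rose by 1.32 (SE 0.14, adjusted p = 0.00515) and GSTU28 fell by 0.80 (SE 0.11, adjusted p = 0.0101). GSTU22, named after its value was seen, fell by 0.80 (adjusted p = 0.0177).

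Few genes that make or remove UGT acceptors could be followed. Of 11 genes of auxin conjugation and related steps, 4 had a named probe set and 2 of these rose, where 7.63% of all probe sets and 6.88% of those with a single gene were higher. GH3.3, which encodes an enzyme that joins auxin to amino acids, had signals of 7.34 and 7.60 in css1, against 5.59 and 5.77 in WT, and rose by 1.79 (SE 0.12, adjusted p = 0.00214). DAO1, for an auxin oxidase, rose by 0.66 (SE 0.09, adjusted p = 0.0119), while GH3.5 was at −0.20 (adjusted p = 0.512). UGT74D1 and UGT84B1, whose enzymes also use auxins, did not pass, as given above.

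Of 7 salicylate genes only BSMT1, for a salicylic acid methyltransferase, had a named probe set, and it was at 1.08 (SE 0.34, adjusted p = 0.0893). Its css1 signals were 3.57 and 4.70 and its WT signals 3.07 and 3.03, all under the 30th percentile of 4.73. Of 13 glucosinolate genes only BCAT4, for the first step of methionine chain elongation, had a named probe set, and it was at 0.19 (adjusted p = 0.455). The lists for abscisic acid, cytokinin, brassinosteroid and sterol genes had no member with a named probe set and are not analysed here.

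Whole seedlings hold shoot and root, and many UGT genes are expressed more strongly in the one or the other. Only a few organ markers had a named probe set, and none of them passed in limma. The shoot marker RCA, for Rubisco activase, 1 of 8 on its list, had linear signals of 11582 and 11192 in css1 and of 13125 and 13580 in WT (−0.23, adjusted p = 0.128). The root hair expansin genes EXPA7 (−0.33, adjusted p = 0.123) and EXPA18 (−0.51, adjusted p = 0.0858), 2 of 9 root markers, summed to linear signals of 212 and 202 in css1 and 308 and 248 in WT. The seed oil body gene OLEO5, 1 of 3 seed markers, had linear signals of 19.5 and 14.2 in css1, against 13.3 and 11.5 in WT (0.43, adjusted p = 0.152). At an unadjusted p under 0.05 all 4 markers differed, as did 7214 of all 22746 probe sets. The log2 signals of OLEO5 lay between 3.52 and 4.29, under the 30th percentile of 4.73. Fewer cells of a type and less RNA per cell cannot be told apart in such samples, and the part of organ proportions in the UGT differences was not tested.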

How the data were processed

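Per the submitters' processing notes, the authors computed log2 signals with RMA, whose version is not stated. The deposited log2 values of the 4 arrays were used as they stand, with no detection calls among the sources used. After 64 control probe sets were set aside, 22746 were tested. The platform annotation gave 13513 of them 1 gene and 503 several, and did not list 8730. All 44 UGT genes were matched by gene ID to the RefSeq table of TAIR10.1, which served for names and neighbours only. It holds 58 genes with a UGT symbol: besides the 44, the 3 UGT78D genes, 4 on probe sets of several genes, and 7 with no named probe set, not analysed here.

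A linear model with a single genotype term was fitted to every probe set in R 4.3.3 (limma 3.58.1, lmFit followed by eBayes). Tests were two-sided, and the Benjamini-Hochberg adjustment ran over all probe sets, with a threshold of 0.05. The procedure was tested on simulated data. The eBayes step moderates the variance of each probe set with the variances of all probe sets. SEs and p-values from limma thus do not rest only on the spread between the 2 biological RNA samples per genotype. Those of the plain two-sample test do. List members with several probe sets were represented by the one with the highest mean. Signals on each array were given for UGT genes that passed with an absolute log2 difference of at least 0.58, and the others by difference and adjusted p. Beyond that rule, signals of some genes that did not pass were given, chosen after their values were seen. The genes and lists were chosen with earlier results of these data known. Same-numbered arrays did not deviate together (correlation of deviations −0.0061), so the replicate number was tried only as an alternative, along with a filter on dim probe sets, variance models, scalings, array weights, thresholds, suffixed probe sets, a plain two-sample test and leaving out each array.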

Additional observations from a re-analysis of the deposited data

How the results depend on the processing

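The 2 arrays per genotype limit the precision of these calls. The 10 calls were the same genes under eBayes with trend, eBayes robust, a second quantile normalization, array weights and without suffixed probe sets. Centring each array on its median dropped UGT76C1, and a filter that dropped probe sets under the 30th percentile of signal, leaving 36 of the 44 genes, added UGT73B5. Centring moved the median of all probe sets to 0.015. The replicate block left 4 UGT genes higher and 1 lower, and 629 and 635 of all probe sets, with UGT71B5, UGT72E2, UGT76C1, UGT84A3 and UGT85A2 no longer called; the arrays share only a number, as the labels give no other pairing. At an adjusted p under 0.01, 3 UGT genes were higher and 0 lower (435 and 338 of all probe sets), with 11 and 7 UGT genes at an unadjusted p under 0.05. With at least a 1.5-fold difference as well, 1 UGT gene was lower, and 953 and 904 of all probe sets were higher and lower. A plain two-sample test, with 2 degrees of freedom per probe set, called 0 UGT genes higher and 0 lower, and 0 of all probe sets in each direction, although 6 and 5 UGT genes and 2237 and 2568 probe sets in all had a p under 0.05 before adjustment.

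With each array left out in turn, a probe set's own spread came from the genotype that kept both arrays. The remaining array was taken to be as variable. The UGT genes higher in css1 then numbered 2 to 5, those lower 0 to 3, and all probe sets 336 to 1586 higher and 224 to 1493 lower, the fewest without a css1 array. UGT73D1 passed without WT replicate 2 (adjusted p = 0.0362) and UGT87A2 without WT replicate 1 (adjusted p = 0.0367). The median over the UGT genes ranged from 0.0071 to 0.091, that of UGT71 from −0.14 to 0.0070, of UGT72 from −0.30 to −0.098, of UGT73 from −0.026 to 0.18, of UGT74 from 0.13 to 0.17, of UGT76 from 0.15 to 0.21, of UGT84 from 0.092 to 0.19 and of UGT85 from 0.041 to 0.11. The filter gave medians of −0.16 for UGT73, 0.34 for UGT76 and 0.38 for UGT84, each over fewer genes. As it used the mean over all 4 arrays, UGT73C1 and UGT76E12, both dim in WT, were kept through their css1 signals. Centring gave 0.20 for both UGT74 and UGT76 and 0.12 for UGT85, as did a second quantile normalization for UGT85.

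The genes whose sign changed under some alternative were all far from the threshold. With arrays left out, the difference ranged from −0.25 to 0.019 for UGT71B8, −0.31 to 0.0070 for UGT71C2, −0.025 to 0.027 for UGT71C4, −0.098 to 0.12 for UGT72B3, −0.21 to 0.079 for UGT72E1, −0.028 to 0.27 for UGT73C2, −0.0054 to 0.42 for UGT74F1, −0.21 to 0.16 for UGT76E1, −0.19 to 0.10 for UGT80B1, −0.11 to 0.10 for UGT84A4 and −0.37 to 0.18 for UGT88A1. Centring turned UGT76E1 to 0.019 and UGT84A4 to 0.036, and a second quantile normalization turned UGT84A4 to 0.022. The cause was not tested.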
